A study of Caenorhabditis elegans with 12 samples.

Results

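The genes described here are 10 genes of meiotic chromosomes in the nematode Caenorhabditis elegans: rec-8, htp-3, him-3 and htp-1 of the chromosome axis, syp-1, syp-2 and syp-3 of the synaptonemal complex, and spo-11, him-14 and msh-5 of recombination. They were chosen by name among the 20018 genes measured, and all 10 were found. The gene for the protein MSH-4 stood on the array as him-14, and a separate feature named msh-4 belonged to a pseudogene, T02G5.6, which was kept apart. Total RNA from whole worms was hybridised to 12 single-colour NimbleGen expression arrays, 1 for each of 3 strains in 4 conditions of the Shenzhou-8 space flight.

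In static flight, worms flew for 16.5 days at 23 °C in microgravity with a measured radiation dose of 1.92 mGy. In centrifuged flight they flew in the same unit on a centrifuge at 1 g, with a dose of 2.27 mGy. Ground control worms were kept in a static slot of a matching unit on the ground at 1 g, for the same time and temperature, starting 2 days later, and worms of these 3 conditions were collected 7 h after the end. Transport control worms were not carried to the launch site but stayed in a university incubator, and the labels give neither their duration nor their collection time. The strains were LS292, which carries dys-1(cx18) in the worm's dystrophin gene, MT4930, which carries ced-1(n1995) in a receptor for engulfing dying cells, and the wild type N2. Worms of all groups were prepared as dauer larvae, the resting larval stage, and loaded with fresh medium where they were carried, and the stage at collection is not given. Each array held the RNA of 1 pool of worms, with technical but no sample repeats by the design text. The 3 strains of a condition therefore serve as its replicates. The p-values measure the spread left between these pools after mean strain differences are taken out. That spread also holds any unequal response of the strains to a condition, which cannot be told apart from differences between pools.

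In meiosis, homologous chromosomes pair, synapse and exchange DNA so that they can be separated into gametes. Cohesin and HORMA-domain proteins form an axis along each chromosome, the SYP proteins join the axes of a pair as the central part of the synaptonemal complex, SPO-11 cuts the DNA to start recombination, and the MutS homologues MSH-4 and MSH-5 turn some of the cuts into crossovers. All of this takes place in germ cells, so in whole worms RNA of these genes is contributed mainly by the gonad. In such samples fewer germ cells and less RNA per germ cell cannot be told apart.

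The 10 genes were each measured by 1 feature of 5 or 6 probes, and all values below are log2 of the deposited linear intensity, which the authors normalized with RMA. Array medians lay between 7.66 and 7.76, and htp-3, spo-11 and him-14 had means below them, at 7.36, 7.25 and 7.12 over 12 arrays. In transport control the mean of him-14 was 6.60. The files hold no detection flag and no gene can be called absent. Precision is limited by how few arrays there are. The transcript of dys-1 was at 7.76 ± 0.65 on dys-1 mutant arrays (SD, n = 4) and 7.52 ± 0.29 on the others (SD, n = 8). For ced-1 it was 9.91 ± 0.30 on ced-1 mutant arrays (SD, n = 4) and 10.25 ± 0.29 on the others (SD, n = 8). The groups overlapped for both genes. Whether the alleles lower the transcripts is not stated in the labels, so these levels do not check the labels.

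The mutants' transport control arrays stood apart for these genes. With each gene set to its own mean over 12 arrays, the mean over the 10 genes was -0.62 on the dys-1 and -0.73 on the ced-1 transport control array. It was 0.17 on the wild-type transport control array and ran from -0.11 to 0.55 on the other 9. Below, results of the 10 genes in static flight against transport control are given also without each of these arrays. In ground against transport control this is done for the median of the 10 and for rec-8, him-14 and syp-3. Single genes named from other lists are given on all 12 arrays only.

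The clearest condition difference among the 10 genes was in rec-8, which encodes the meiotic kleisin subunit of cohesin, the ring that holds sister chromatids together. In static flight rec-8 was at 9.83 in dys-1, 10.40 in ced-1 and 10.29 in N2, and in centrifuged flight it was at 9.66, 9.37 and 9.63 in the same order of strains. Ground control arrays read 9.42, 9.30 and 9.71, and transport control arrays 8.29, 7.89 and 9.03. Every static flight array was above all 9 other arrays, and every transport control array was below all 9 others, while centrifuged flight and ground control overlapped.

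By level the order for rec-8 was static flight at 10.18 ± 0.30, centrifuged flight at 9.55 ± 0.16, ground control at 9.48 ± 0.21 and transport control at 8.40 ± 0.58 (SD, n = 3 each). Of the steps between neighbours in this order, that between ground and transport control passed the limma test across all genes, with adjusted p = 0.0258. The step between static and centrifuged flight did not (log2 difference 0.62 ± 0.26 SE, limma adjusted p = 0.354), nor did that between centrifuged flight and ground control (0.07 ± 0.26 SE, limma adjusted p = 0.978). In a test for any difference among the 4 conditions, rec-8 had a limma adjusted p of 0.00280 and was the only member of the 10 that passed, where 8.23% of all genes passed. Without the dys-1 or the ced-1 transport control array the limma adjusted p of rec-8 in that test was 0.0228 or 0.0295, and it stayed under 0.05 with each of the 12 arrays left out in turn. The next smallest value was that of him-14, with a limma adjusted p of 0.0845.

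**Figure D1:**
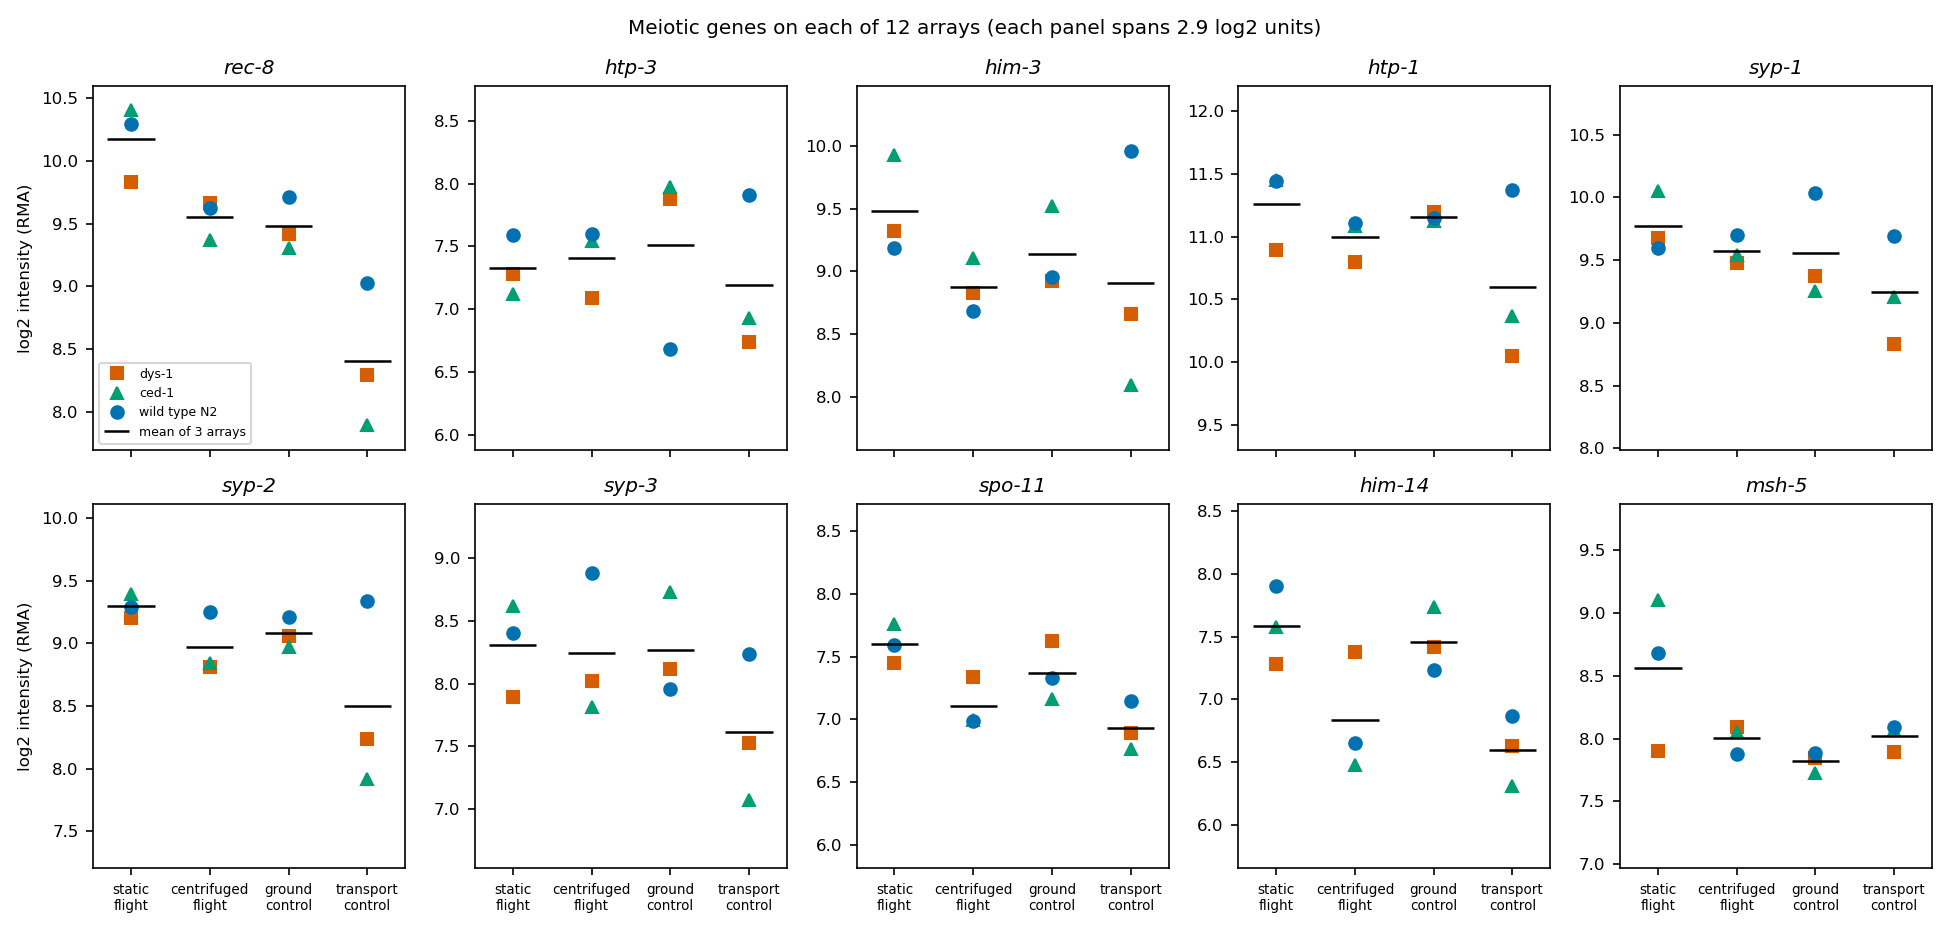
Log2 intensity of each of the 10 genes on each of 12 arrays, by condition, with squares for dys-1, triangles for ced-1, circles for wild type N2 and a line at the mean of the 3 arrays of a condition; each panel spans the same number of log2 units. In rec-8 the static flight arrays (9.83 to 10.40) lie above, and the transport control arrays (7.89 to 9.03) below, all other arrays, and in all 10 genes the wild-type transport control array lies above those of both mutants.

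The comparison of static flight with ground control covers the flight as a whole, microgravity and radiation included, and ground control also started 2 days later. Here none of the 10 genes passed (limma, adjusted p under 0.05 over 20018 genes), where 0.21% of all genes did. At an unadjusted p under 0.05, rec-8 and msh-5 passed, 2 of 10 genes against 11.7% of all genes. The median log2 difference of the 10 genes was 0.22, against 0.04 over all genes.

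The gene msh-5 encodes the partner of MSH-4 in crossover formation. In static flight it was at 7.90 in dys-1, 9.11 in ced-1 and 8.69 in N2, and in ground control at 7.85, 7.73 and 7.88 in the same order. Centrifuged flight gave 8.09, 8.05 and 7.88, and transport control 7.89, 8.07 and 8.10. The ced-1 and N2 static flight arrays stood above all others, whereas the dys-1 static flight array lay within the range of the remaining conditions. The static flight minus ground control difference was 0.74 ± 0.26 (SE, 1.68-fold, limma adjusted p = 0.263) for msh-5 and 0.70 ± 0.26 (SE, 1.62-fold, limma adjusted p = 0.290) for rec-8. Without the ced-1 static flight array the differences were 0.47 for msh-5 and 0.44 for rec-8 (limma adjusted p = 0.818 and 0.841). In both genes all 3 static flight arrays were above all 3 ground control arrays, as in 10.2% of all genes.

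The other 8 genes had differences between -0.18 for htp-3 and 0.34 for him-3 in this comparison, with limma adjusted p from 0.763 to 0.979. Of these 8, him-3 and syp-2 were higher in static flight in all 3 strains, and the strains differed in direction for the other 6. Without the ced-1 static flight array the median of the 10 genes was 0.05. Within dys-1, the median difference of the 10 genes was -0.04, against 0.41 within ced-1 and 0.37 within the wild type. For htp-3 the difference was -0.60 in dys-1 and -0.85 in ced-1, but 0.91 in N2, where the ground control array was the lowest of all 12 for this gene.

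Static against centrifuged flight compares microgravity with 1 g when both groups were exposed to space radiation. Again none of the 10 genes passed in limma, and 1 gene of 20018 did (0.005%). The unadjusted test passed him-14, rec-8 and spo-11, 3 of 10 against 12% of all genes, and the median difference was 0.41, against 0.004 over all genes. That median was 0.14 within dys-1, 0.78 within ced-1 and 0.42 within N2. The gene him-14 was at 7.28 in dys-1, 7.58 in ced-1 and 7.90 in N2 in static flight, against 7.38, 6.48 and 6.65 in centrifuged flight, so the dys-1 arrays did not differ in the direction of the other strains. Its difference was 0.75 ± 0.28 (SE, limma adjusted p = 0.308).

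The break-making enzyme gene spo-11 was at 7.45 in dys-1, 7.76 in ced-1 and 7.60 in N2 in static flight, against 7.34, 6.99 and 6.99 in centrifuged flight. The axis gene him-3, whose protein is needed for pairing and for exchange between homologues, was at 9.32, 9.93 and 9.19 in static flight, against 8.83, 9.11 and 8.69 in centrifuged flight. The arrays of rec-8, spo-11 and him-3 did not overlap, with static flight above, as in 8.54% of all genes. The differences were 0.49 ± 0.23 for spo-11 and 0.61 ± 0.39 for him-3 (SE, limma adjusted p = 0.413 and 0.576).

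Centrifuged flight against ground control compares flown and unflown worms at 1 g, with space radiation as the factor the labels name. No member passed in limma, where 7 genes of 20018 did (0.035%). The median difference of the 10 genes was -0.11, against 0.05 over all genes. At an unadjusted p under 0.05, only him-14 passed, where 6.02% of all genes did, and it was lower in centrifuged flight by -0.62 ± 0.28 (SE, limma adjusted p = 0.824). Its ground control levels were 7.41 in dys-1, 7.73 in ced-1 and 7.23 in N2, and within dys-1 the difference was -0.03, against -1.25 within ced-1 and -0.58 within N2. For htp-1 all 3 centrifuged flight arrays were below all 3 ground control arrays, as in 3.88% of all genes. The fitted difference of htp-1 was -0.16 ± 0.26 (SE, limma adjusted p = 0.939).

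Static flight against transport control gave the largest differences in these genes. This comparison holds the flight, carriage to the launch site, the flight unit and an unstated duration and collection time of transport control. These parts cannot be told apart. The fitted difference was above 0 for all 10 genes, with a median of 0.67, against -0.01 over all genes. Without the dys-1 transport control array the median of the 10 was 0.58 and 9 were above 0, and without the ced-1 one it was 0.52 and 8 were above 0. Of the 10, rec-8 and him-14 were called higher in static flight than in transport control by the limma test. Of all genes, 8.73% were called higher and 15.1% in either direction. Against ground control neither rec-8 nor him-14 was called in static flight (limma adjusted p = 0.290 and 0.907). At an unadjusted p under 0.05, 5 of the 10 passed, where 28.4% of all genes did.

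The rise of rec-8 was 1.77 ± 0.26 (SE), or 3.42-fold, with a limma adjusted p of 0.000328. It was 1.54 within dys-1, 2.51 within ced-1 and 1.26 within the wild type. Without the dys-1 transport control array the difference of rec-8 was 1.77 (limma adjusted p = 0.00273), and without the ced-1 one it was 1.54 (limma adjusted p = 0.00377). With each of the 12 arrays left out in turn, the call held every time and the difference of rec-8 stayed between 1.51 and 2.01.

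The rise of him-14 was 0.99 ± 0.28 (SE), or 1.98-fold, with a limma adjusted p of 0.0315. Its transport control levels were 6.63 in dys-1, 6.30 in ced-1 and 6.86 in N2, all below the static flight levels of 7.28, 7.58 and 7.90. The call of him-14 was lost without the N2 or the ced-1 static flight array (limma adjusted p = 0.164 and 0.136) and without the dys-1 or the ced-1 transport control array (limma adjusted p = 0.103 and 0.158). Groups that did not overlap were seen for rec-8, him-14 and spo-11, as in 13.6% of all genes with static flight above.

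Among the axis genes beside rec-8, htp-1 codes for a HORMA-domain protein that coordinates pairing with synapsis. It was at 10.90 in dys-1, 11.45 in ced-1 and 11.44 in N2 in static flight, against 10.05, 10.37 and 11.37 in transport control, a difference of 0.66 ± 0.26 (SE, limma adjusted p = 0.112). The N2 transport control array lay among the static flight arrays. Its paralogue htp-2, so alike in sequence that probe signal may be shared, had static flight levels of 9.01, 9.18 and 9.81 against transport control levels of 8.53, 7.88 and 9.88 in the same order, so neither value can be assigned to 1 of these genes with certainty.

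For him-3 the static flight levels of 9.32, 9.93 and 9.19 stood against transport control levels of 8.66 in dys-1, 8.09 in ced-1 and 9.96 in N2. The N2 transport control array was the highest of all 12 for him-3 and the ced-1 one the lowest, and the fitted difference was 0.58 ± 0.39 (SE, limma adjusted p = 0.371). For htp-3, whose protein recruits the other HORMA-domain proteins to the axis, static flight levels were 7.28 in dys-1, 7.12 in ced-1 and 7.59 in N2, against transport control levels of 6.74, 6.93 and 7.91. The difference of htp-3 was 0.14 ± 0.37 (SE, limma adjusted p = 0.858), the smallest of the 10.

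Against static flight, the synapsis genes syp-1 and syp-2, like htp-1, were low in the transport control of the mutants and not of N2. For syp-2, static flight levels were 9.20 in dys-1, 9.39 in ced-1 and 9.29 in N2, against 8.24, 7.92 and 9.34 in transport control, with a difference of 0.80 ± 0.27 (SE, limma adjusted p = 0.0620). For syp-1 they were 9.68, 10.05 and 9.59, against 8.83, 9.21 and 9.69, with a difference of 0.53 ± 0.25 (SE, limma adjusted p = 0.186). In both genes the mutant arrays were lower in transport control, while the differences within N2 were -0.05 for syp-2 and -0.10 for syp-1. Against ground control syp-1 did not keep this layout. Its ground minus transport control difference was 0.55 within dys-1, 0.05 within ced-1 and 0.34 within N2. For syp-3, static flight levels were 7.89, 8.62 and 8.41, against 7.53, 7.07 and 8.24, with a difference of 0.69 ± 0.33 (SE, limma adjusted p = 0.190), and here all 3 strains were higher in static flight.

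The recombination genes did not share that layout. The difference of spo-11 was 0.67 ± 0.23 (SE, limma adjusted p = 0.0639), with transport control levels of 6.89 in dys-1, 6.76 in ced-1 and 7.15 in N2 all below its static flight levels. The difference of msh-5 was 0.54 ± 0.26 (SE, limma adjusted p = 0.193), and its dys-1 arrays read 7.90 in static flight and 7.89 in transport control.

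Leaving out the mutants' transport control arrays lowered most of these uncalled differences. Without the dys-1 array the static flight minus transport control difference was 0.48 for htp-1, 0.52 for him-3, 0.39 for syp-1, 0.71 for syp-2, 0.78 for syp-3, 0.59 for spo-11 and 0.57 for msh-5. Without the ced-1 array it was 0.51 for htp-1, 0.52 for syp-1, 0.53 for syp-2, 0.36 for syp-3, 0.61 for spo-11 and 0.49 for msh-5, while him-3 was at -0.0092. For htp-3 it was -0.09 without the dys-1 and -0.06 without the ced-1 array. None of these 8 genes passed the limma test in either case.

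**Figure D2:**
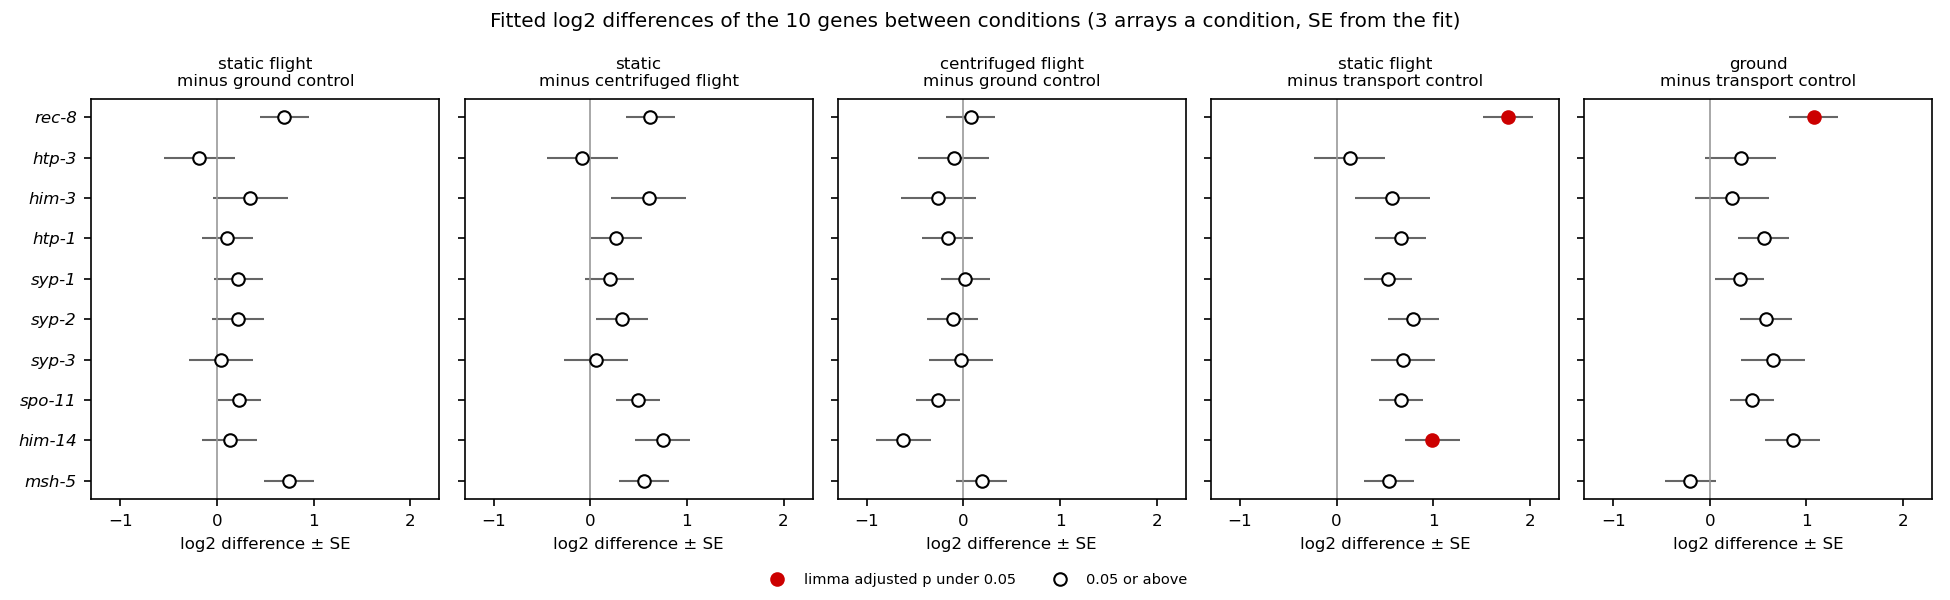
Fitted log2 difference of each of the 10 genes in 5 comparisons, with bars of 1 SE and filled points where the limma adjusted p was under 0.05. Static flight minus transport control has all 10 points above 0, with rec-8 at 1.77 and him-14 at 0.99 filled, and in ground minus transport control rec-8 at 1.08 is the filled point.

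Ground against transport control compares worms that were carried and kept in a matching unit on the ground with worms left in the incubator without transport. Duration and collection time of the incubator worms are not given, so these factors cannot be told apart. The gene rec-8 rose in ground control by 1.08 ± 0.26 (SE, 2.11-fold, limma adjusted p = 0.0258) and was the 1 gene of 10 called, where 3.09% of all genes were called higher and 5.34% in either direction. This call of rec-8 was lost without the dys-1 or ced-1 ground control array (limma adjusted p = 0.0983 and 0.0925), without the dys-1 or ced-1 transport control array (0.0921 and 0.180) and without strain as a block (0.0511). The difference of rec-8 was 1.13 within dys-1, 1.41 within ced-1 and 0.69 within N2.

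Of the other genes in ground against transport control, him-14 had the largest difference, 0.86 ± 0.28 (SE, limma adjusted p = 0.103), followed by syp-3 at 0.65 ± 0.33 (SE, limma adjusted p = 0.300). Without the dys-1 transport control array these differences were 0.84 for him-14 and 0.74 for syp-3. They were 0.73 and 0.33 without the ced-1 one. The gene msh-5 ran the other way at -0.20 ± 0.26 (SE, limma adjusted p = 0.738), with all 3 ground control arrays below all 3 transport control arrays, as in 10.6% of all genes. The opposite layout, ground control above, was found for rec-8, spo-11 and him-14, as in 8.98% of all genes. The median difference of the 10 genes was 0.50, against -0.04 over all genes, and it was 0.37 without the dys-1 and 0.32 without the ced-1 transport control array. It was 0.76 within dys-1 and 1.05 within ced-1, but -0.17 within N2.

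With both flown conditions set against both control conditions, rec-8 rose by 0.92 ± 0.18 (SE, 1.90-fold, limma adjusted p = 0.00748), the 1 gene of 10 called, where 4.28% of all genes were called higher and 5.94% in either direction. Without each array in turn the call of rec-8 held, with differences from 0.79 to 1.04. The other 9 genes had differences from 0.02 for htp-3 to 0.37 for msh-5, with limma adjusted p from 0.309 to 0.984. The control conditions here include transport control, where rec-8 was lowest. Against ground control alone rec-8 was not called in static flight (0.70 ± 0.26 SE, limma adjusted p = 0.290). Nor was it called in centrifuged flight against ground control (0.07 ± 0.26 SE, limma adjusted p = 0.978). The comparisons above share arrays, so rec-8 being called in several of them is not repeated evidence.

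Between strains, none of the 10 genes passed for either mutant, and no gene of 20018 did by limma (0% for each). At an unadjusted p under 0.05, 2976 genes (14.9%) passed for dys-1 and 1059 (5.29%) for ced-1, with htp-1 the 1 member in dys-1 at -0.53 ± 0.23 (SE, limma adjusted p = 0.301) and no member in ced-1. The median difference of the 10 genes was -0.31 for dys-1 minus N2, against -0.03 over all genes, and -0.19 for ced-1 minus N2. For syp-2 the dys-1 and ced-1 differences were -0.44 and -0.49, and for rec-8 they were -0.36 and -0.42.

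Strain by flight terms asked whether flown and control worms differed by an unequal amount in a mutant and in N2. No gene passed for either mutant by limma (0%), with 865 genes (4.32%) for dys-1 and 972 (4.86%) for ced-1 at an unadjusted p under 0.05 and no member among them. A strain by transport term, added after the mutants' transport control arrays had been seen to stand apart, restates that observation and rests on 1 transport control array per strain. It asked whether the transport control array of a mutant lay further from its 3 carried arrays than that of N2 did. No gene passed for dys-1 or ced-1 (0% for each, with 1172 genes or 5.85% and 1477 genes or 7.38% at an unadjusted p under 0.05). Among the 10 genes him-3 had the largest such term, at -2.44 for ced-1 and -1.38 for dys-1. The median term of the 10 genes was -0.97 for ced-1 and -0.55 for dys-1, against 0.04 and 0.02 over all genes. These values are given as a description.

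Over the 12 arrays the 10 genes followed each other to different degrees. Pearson's r of the 45 pairs ran from -0.11, for htp-3 with msh-5, to 0.89, for htp-1 with syp-2, with a median of 0.57 and 44 pairs above 0. Without the dys-1 and ced-1 transport control arrays, the median over 10 arrays was 0.29 and the range -0.71 to 0.77. These are descriptions of arrays that share conditions, strains and normalization. The genes outside the 10 whose levels were most like the mean of the 10 were rnp-8, set-24, orc-1, cyk-4 and ani-1, with r from 0.966 to 0.970 over 12 arrays and from 0.898 to 0.943 without the same 2 arrays.

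Other genes of meiotic chromosomes, taken from 5 lists of 55 names of which 53 were measured, were examined beside the 10. In static flight against transport control, 15 of the 53 rose and none fell, where 8.73% of all genes were called higher, and the median difference was 0.57, against -0.01 over all genes. In ground against transport control none of the 53 passed in limma, where 5.34% of all genes did. At an unadjusted p under 0.05, 4 of the 53 were higher and 1 was lower, where 8.34% and 11.1% of all genes were. By list, in static flight against transport control 2 of 9 rose among axis and cohesin genes, 3 of 7 among synapsis genes and 2 of 9 among pairing genes. The counts were 4 of 9 among break formation and resection genes and 4 of 19 among strand exchange and crossover genes. Among those that rose were coh-3 at 1.12 ± 0.29, another meiotic kleisin, syp-6 at 1.46 ± 0.28, a further synaptonemal complex protein, and sun-1 at 1.53 ± 0.31, the inner nuclear envelope protein that helps move chromosomes for pairing (SE, limma adjusted p = 0.0194, 0.00285 and 0.00398). The break repair gene mre-11 was at 1.04 ± 0.31, rad-54.L, which acts with the strand exchange protein RAD-51, at 1.33 ± 0.23, and the crossover site gene cosa-1 at 1.17 ± 0.28 (SE, limma adjusted p = 0.0385, 0.00159 and 0.0118). The count of 15 was 5 without the dys-1 transport control array, 4 without the ced-1 one, and 8, 5 and 10 without the dys-1, ced-1 and N2 static flight arrays. It was 22 without the N2 transport control array and 9 without strain as a block. Which of the named genes stayed called with an array left out is not given here.

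In static flight against ground control none of the 53 passed in limma, and 10 were higher at an unadjusted p under 0.05, where 8.33% of all genes were, with a median of 0.36. The smallest adjusted p values were those of rad-54.L at 1.00 ± 0.23 and of the mismatch repair gene mlh-1 at 1.11 ± 0.26 (SE, limma adjusted p = 0.0902 and 0.0920). For both flown against both control conditions, 4 of 53 rose, where 4.28% of all genes did: syp-6, sun-1, rad-54.L and mlh-1, by 0.84, 0.87, 0.77 and 0.75. That count ran from 0, without the ced-1 static flight array, to 11, without the N2 transport control array.

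Markers of the whole germline were examined in the same comparisons. In static flight against transport control, 8 of 20 germ cell markers rose (median 0.75), 14 of 19 oocyte and eggshell markers rose (median 1.33) and 12 of 16 sperm markers rose (median 2.13), and none of these fell, where 8.73% of all genes were called higher. In ground against transport control 0 of 20 germ cell, 0 of 19 oocyte and 8 of 16 sperm markers rose, where 3.09% of all genes did. At an unadjusted p under 0.05 in limma, 1 germ cell, 1 oocyte and 11 sperm markers were higher, where 8.34% of all genes were. By the same test 1 germ cell marker was lower, where 11.1% of all genes were. For both flown against both control conditions the counts that rose were 2, 3 and 10, where 4.28% of all genes did. With each array left out in turn, the counts for static flight against transport control ran from 0 to 12, from 1 to 19 and from 11 to 13. The germ cell count was 0 without the ced-1 static flight array, and 3 and 1 without the dys-1 and the ced-1 transport control array. The oocyte count was 1 without any one of these 3 arrays, and both counts were highest without the N2 transport control array. Summed intensities of the germ cell markers were 23464 to 29284 in static flight and 12075 to 28131 in transport control. Those of the oocyte markers were 49848 to 96553 in static flight and 16746 to 94143 in transport control, and those of the sperm markers 11291 to 22964 in static flight and 2581 to 3471 in transport control. No marker was at 0, since the files hold no zero intensities. Neuron markers moved the other way, with 3 of 12 lower in static flight (median -0.69), where 6.38% of all genes were called lower.

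The oocyte list followed the strains of the transport control more closely than the sperm list did. With each gene set to its mean over 12 arrays, the median oocyte marker was at -1.60 on the dys-1, -1.31 on the ced-1 and 0.86 on the N2 transport control array, and the median sperm marker at -1.21, -1.11 and -0.84. Germ cell markers gave -0.59, -0.91 and 0.29, and the 10 meiotic genes -0.60, -0.72 and 0.14, so the meiotic genes lay next to the germ cell markers on these arrays. In static flight against ground control, 0 of 20 germ cell, 0 of 19 oocyte and 2 of 16 sperm markers rose in limma, where 0.19% of all genes were called higher. At an unadjusted p under 0.05, 5 germ cell, 8 oocyte and 12 sperm markers were higher, where 8.33% of all genes were. The part of these cell type markers in the differences of the 10 genes was not tested.

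**Figure D3:**
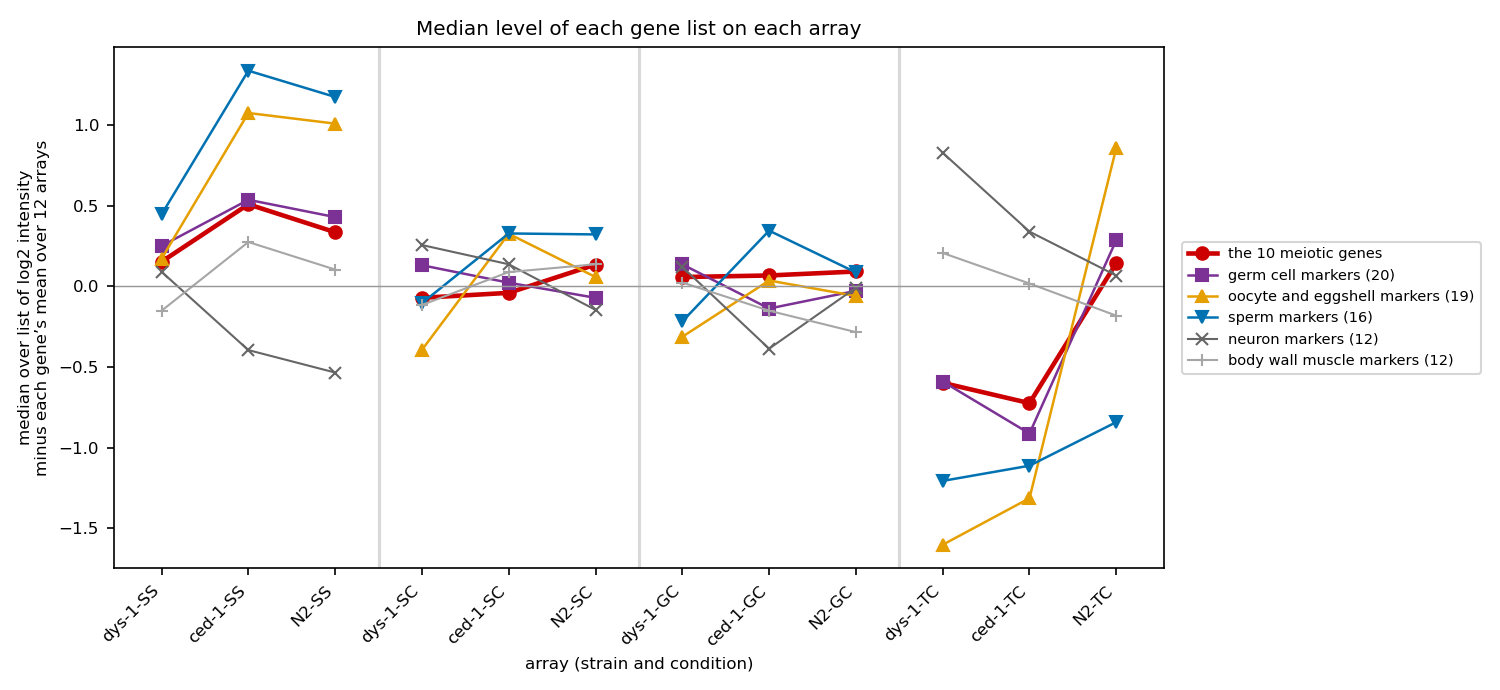
Median over each gene list of the log2 intensity minus each gene's mean over 12 arrays, for each array (SS static flight, SC centrifuged flight, GC ground control, TC transport control); lines join the arrays of 1 condition for reading only. The 10 meiotic genes and the germ cell markers lie low on the dys-1 and ced-1 transport control arrays (-0.60 and -0.72 for the meiotic genes) and not on the N2 one, whereas the sperm markers are low on all 3 (-0.84 to -1.21).

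**Figure D4:**
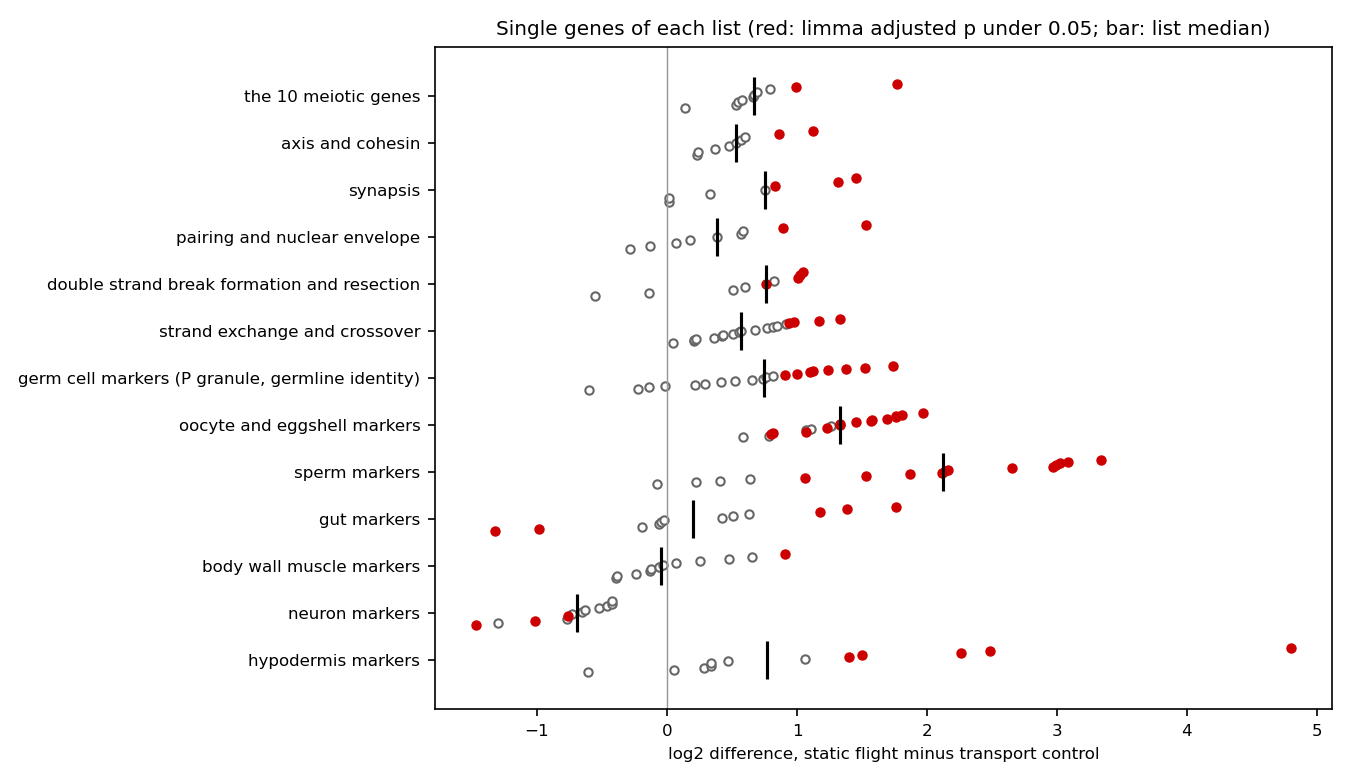
Log2 difference of static flight minus transport control for each gene (points) of the 10 meiotic genes and of 12 other lists, filled where the limma adjusted p was under 0.05, with a bar at each list's median. The medians are 0.67 for the 10 meiotic genes, 0.75 for germ cell, 1.33 for oocyte, 2.13 for sperm and -0.69 for neuron markers.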

How the data were processed

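The authors deposited 1 linear intensity per feature and array. Per the submitters' processing notes these were normalized with RMA, a method that corrects background, equalises the distributions of the arrays and combines probes. Differences in RNA content per worm are therefore removed. From the deposited intensity, log2 values with no pseudocount were averaged over the features of each WormBase gene, giving 20018 genes from 23187 features. Symbols came from the reference gene table for 19428 genes and from the array for 590.

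A model of condition plus strain over 12 arrays was fitted to each gene in limma 3.58.1 under R 4.3.3 (6 residual and 7.71 prior degrees of freedom). P-values were adjusted by Benjamini-Hochberg over all genes, and a gene passed under 0.05. Arrays are paired across conditions by the strain the labels give. The fit was tested on simulated data. The 10 genes, the gene lists and the tests were chosen with earlier results of these data known. All 10 genes are named, from each list up to 4 genes with the largest change among those that passed (or among all, if none did), and the 5 genes most correlated with the mean of the 10. Alternatives were quantile normalization, median centring, an offset of 50, only the 18185 features of the series value table, no strain block, and each array left out. Gut, body wall muscle and hypodermis markers are given among the other observations. The names pds-5, dsb-2, fer-14, ssp-11, msd-3 and peel-1 were not matched on the array.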

Additional observations from a re-analysis of the deposited data

Results flagged for a closer look

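Within the dys-1 strain, him-14 on the transport control array was at 6.627 (log2 intensity), far from the nearest of the other 3 dys-1 arrays, at 7.283. The gap was 0.834 of the range of the 4 arrays, just past Dixon's critical value for 4 arrays. The 10 genes in 3 strains made 30 such groups of 4 arrays and 1 stood out. A rate of about 1 in 20 by chance holds for arrays of 1 condition. Here the 4 arrays came from 4 conditions, so the count cannot be set against that rate. The dys-1 transport control array is described above as standing apart for these genes.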

How the results depend on the processing

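Over the other scalings, the offset, the feature filter and the fit without the strain block, 376 of 388 values for single genes kept their direction and side of the threshold. Quantile normalization turned htp-1 (-0.029) and syp-3 (-0.093) in static flight against ground control, rec-8 (-0.017) and syp-1 (-0.070) in centrifuged flight against ground control, htp-3 (-0.020) in flown against control conditions and him-3 (0.0011) in ced-1 against N2. Median centring turned syp-3 in static flight against ground control (-0.021), htp-3 in flown against control conditions (-0.0027) and him-14 in dys-1 against N2 (-0.011), and the offset of 50 turned htp-3 in flown against control conditions (-0.0037). None of these was called in either setting. Without the replicate block, rec-8 in ground against transport control had a limma adjusted p of 0.0511, so 0 of the 10 genes were called. No other call of the 10 genes changed without that block. With the offset the ced-1 by transport term of him-3, which rests on 1 transport control array per strain, was called (-2.23).

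Counts over all genes moved as follows. Static flight against ground control called 42 genes, and 6 with quantile normalization, 9 with median centring, 116 with the offset and 1 without the replicate block. Centrifuged flight against ground control called 7, and 4 with quantile normalization and 3 without the replicate block. Ground against transport control called 1069, and 698 without the replicate block. The ced-1 by transport term called 0, and 30 with the offset, 1 of them among the 10 genes. The causes were not tested.

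With each array left out in turn, the genes called ran from 1 to 59 for static flight against ground control, from 1 to 3 for static against centrifuged flight, from 1 to 7 for centrifuged flight against ground control, from 1372 to 3341 for static flight against transport control, from 493 to 1783 for ground against transport control, from 646 to 1622 for flown against control conditions, from 847 to 2214 for any difference among conditions and from 0 to 329 for dys-1 against N2. Of the 10 genes, 1 to 6 were called in static flight against transport control, 0 to 3 in ground against transport control and 1 to 2 for any difference among conditions. The highest counts of static flight and of ground against transport control came without the N2 transport control array, when him-3 (1.21), htp-1 (1.00), syp-2 (1.15) and spo-11 (0.80) joined rec-8 and him-14 in static flight.

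Fitted differences that changed sign with an array left out ran, in static flight against ground control, from -0.79 to 0.14 for htp-3, -0.076 to 0.31 for htp-1, -0.35 to 0.38 for syp-3 and -0.052 to 0.38 for him-14. In static against centrifuged flight they ran from -0.22 to 0.078 for htp-3 and -0.19 to 0.32 for syp-3. In centrifuged flight against ground control they ran from -0.065 to 0.20 for rec-8, -0.71 to 0.22 for htp-3, -0.34 to 0.042 for htp-1, -0.16 to 0.19 for syp-1 and -0.41 to 0.31 for syp-3. In static flight against transport control they ran from -0.088 to 0.56 for htp-3 and -0.0092 to 1.21 for him-3, and in ground against transport control from -0.0010 to 0.93 for htp-3 and -0.35 to 0.87 for him-3. In flown against control conditions they ran from -0.29 to 0.23 for htp-3 and -0.14 to 0.48 for him-3. In dys-1 against N2 they ran from -0.65 to 0.12 for htp-3, -0.46 to 0.22 for him-3, -0.031 to 0.17 for spo-11, -0.23 to 0.19 for him-14 and -0.33 to 0.046 for msh-5. In ced-1 against N2 they ran from -0.51 to 0.26 for htp-3, -0.23 to 0.44 for him-3, -0.22 to 0.0049 for spo-11 and -0.10 to 0.22 for msh-5. The limits are 1 pool of worms per strain and condition, no detection flag, and mean signals of htp-3, spo-11 and him-14 below the array medians.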

Other observations

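Lists for other tissues were examined in static flight against transport control, where 8.73% of all genes were called higher and 6.38% lower. Of 12 hypodermis markers 5 rose and none fell (median difference 0.77), led by the adult cuticle collagen gene col-19 at 4.80 ± 0.37 (SE, limma adjusted p = 2.53e-06) and by bli-2, a cuticle collagen of the adult struts, at 2.48 ± 0.24 (SE, limma adjusted p = 1.15e-05). Of 12 gut markers 3 rose and 2 fell (median 0.20), with the metallothionein gene mtl-2 at 1.76 ± 0.30 and the transporter gene pgp-1 at -1.33 ± 0.36 (SE, limma adjusted p = 0.00121 and 0.0231). Of 12 body wall muscle markers 1 rose, mup-2 at 0.91 ± 0.26 (SE, limma adjusted p = 0.0330), and the median was -0.04. In static flight against ground control, 1 hypodermis marker and none of the gut or muscle markers rose in limma, where 0.19% of all genes were called higher. At an unadjusted p under 0.05, 1 hypodermis, 0 gut and 1 muscle marker were higher, where 8.33% of all genes were. By the same measure 1 gut marker was lower, where 3.38% of all genes were.

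The feature of the msh-4 pseudogene T02G5.6 was at 7.93 in dys-1, 8.45 in ced-1 and 7.02 in N2 in static flight, against 8.30, 7.55 and 7.71 in ground control. Its fitted difference was -0.05 ± 0.38 (SE, limma adjusted p = 0.976), with the strains differing in direction.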
